A study of Saccharomyces cerevisiae with 24 samples.

Results

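Described here are 8 genes of phosphate uptake in budding yeast, read as 8 rows of a count table with 7127 features, 6600 of them mRNA features. They are the high-affinity transporter genes PHO84 and PHO89, the low-affinity transporter genes PHO87, PHO90 and PHO91, SPL2, whose product lowers low-affinity uptake, PHO86, whose product helps Pho84 leave the endoplasmic reticulum, and GIT1, which encodes a permease for glycerophosphoinositol. The rows were taken by systematic name. The set was proposed with the mutant levels at 30 °C already known, so those levels chose it, and mutant against NPL3 and mutant against mutant at 30 °C are given as a description, without a test. All 8 genes passed the filter on low counts, and 6518 genes were tested in all.

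Libraries of mRNA came from W303 MATa npl3-shuffle cells whose NPL3 was supplied by pRS315, a low-copy LEU2 plasmid. The plasmid carried npl3-F162Y, with a change in the first RNA recognition motif, npl3-P196D-A197D, with changes in the linker after that motif, npl3-F245I, with a change in the second motif, or wild-type NPL3. Npl3 binds RNA, is related to SR proteins and joins mRNA as it is transcribed. Cultures growing in the rich medium YPD either spent 1 hour at 37 °C or stayed untreated at 30 °C, and each of the 8 groups has 3 libraries. The labels give all groups the same GAL+ background with marker alleles of ADE2, CAN1, HIS3, LEU2, TRP1 and URA3. They do not say whether the 3 libraries of a group came from separate transformants or cultures, so p-values measure the spread between these libraries, which may be technical.

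Each library held 15.8 to 34.7 M (mega) counts assigned to genes. The MATa genes MFA1, MFA2, STE2, BAR1 and STE6 lay between 40.6 and 889 CPM in every library, and the alpha-cell genes MFALPHA1, MFALPHA2 and STE3 between 0.450 and 21.9 CPM, so no marker of either mating type was at 0. CPM are counts per 1e+06 of the library scaled by TMM factors, the values used throughout. NPL3 itself averaged 255 ± 24.0 CPM (npl3-F162Y), 299 ± 21.3 CPM (npl3-P196D-A197D) and 342 ± 3.84 CPM (npl3-F245I), against 192 ± 11.4 CPM in NPL3 cells, all at 37 °C (mean ± SD, n = 3). At 30 °C the means were 272 ± 17.2, 329 ± 6.45 and 212 ± 5.77 CPM in the same order, against 204 ± 5.19 CPM in NPL3 cells. In whole cultures, a change in RNA per cell and a change in the share of cells that express a gene cannot be told apart.

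Phosphate uptake in yeast is run by the PHO pathway. In cells with enough phosphate, the cyclin-dependent kinase Pho85 with its cyclin Pho80 phosphorylates the transcription factor Pho4, which then leaves the nucleus. When phosphate runs short, the inhibitor Pho81 holds the kinase back, and Pho4 with its partner Pho2 switches on genes for high-affinity uptake, secreted phosphatases and polyphosphate synthesis. The low-affinity carriers of the plasma membrane serve cells with ample phosphate, and Spl2 lowers their uptake through the SPX domain that they carry.

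The sequences upstream of the genes are shown first, with letter matches to the known core sites of Pho4. The letters CACGTG and CACGTT were searched on both strands of the 1000 bases before each start codon (R64 assembly). CACGTG is its own reverse complement and was counted once per position, and no match can overlap another. CACGTG is also read by the factor Cbf1. Of 5983 genes with a full window, 10.8% held CACGTG, 28.5% CACGTT and 35.9% either. At least 2 matches were held by 8.14% and at least 3 by 1.75%. PHO84 and SPL2 each had 5 matches, GIT1 had 3, PHO89, PHO87 and PHO86 had 2 each, PHO91 had 1 and PHO90 had 0. PHO84 had CACGTG 880, 436 and 414 bases before its start codon and CACGTT, on either strand, 587 and 262 bases before it. SPL2 had CACGTG 361, 147, 90 and 31 bases before its start codon and CACGTT, read on the other strand, 903 bases before it. A match is a description of letters and does not show that a factor binds there.

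The stretches below belong to the 4 genes with the largest changes and hold 3 of the 5 matches of PHO84, both of PHO89, 2 of the 5 of SPL2 and all 3 of GIT1. All are on the minus strand, read 5′ to 3′ towards the gene, with the motif matches in capitals. They come from the RefSeq R64 genome at chrXIII:26051-26250 for PHO84, chrII:798833-798997 for PHO89, chrVIII:375231-375470 for SPL2 and chrIII:299106-299265 for GIT1. The PHO84 stretch lies within the neighbouring reading frame YML122C.
PHO84: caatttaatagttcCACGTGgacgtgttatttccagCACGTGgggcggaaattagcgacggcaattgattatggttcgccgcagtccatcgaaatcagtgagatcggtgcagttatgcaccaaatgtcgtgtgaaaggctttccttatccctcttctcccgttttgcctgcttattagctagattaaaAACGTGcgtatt
PHO89: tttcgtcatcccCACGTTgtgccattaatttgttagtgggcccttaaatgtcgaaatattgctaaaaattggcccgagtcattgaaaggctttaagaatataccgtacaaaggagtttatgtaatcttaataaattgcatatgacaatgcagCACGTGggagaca
SPL2: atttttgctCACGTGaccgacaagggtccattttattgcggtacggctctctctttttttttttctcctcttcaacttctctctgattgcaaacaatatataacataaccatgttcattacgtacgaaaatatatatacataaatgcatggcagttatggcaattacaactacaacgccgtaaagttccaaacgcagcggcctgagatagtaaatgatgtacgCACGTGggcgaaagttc
GIT1: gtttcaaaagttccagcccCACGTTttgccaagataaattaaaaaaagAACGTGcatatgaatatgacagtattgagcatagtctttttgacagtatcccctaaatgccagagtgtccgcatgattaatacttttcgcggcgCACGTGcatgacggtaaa

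PHO84 encodes the high-affinity proton-coupled phosphate carrier of the plasma membrane (YML123C, chromosome XIII, 24037 to 25800, minus strand, 1 exon). At 37 °C it was read at 1288, 1348 and 1250.1 CPM in npl3-F162Y, at 1223, 1219 and 1243 CPM in npl3-P196D-A197D and at 589, 611 and 576 CPM in npl3-F245I, against 155, 88.1 and 61.7 CPM in NPL3. Every mutant library lay above every NPL3 library, and the NPL3 libraries spread the most relative to their mean. The rises at 37 °C were 12.8-fold in npl3-F162Y (log2 fold change 3.68 ± 0.39, standard error; adjusted p = 1.08e-10), 12.1-fold in npl3-P196D-A197D (3.60 ± 0.39; adjusted p = 3.22e-10) and 5.85-fold in npl3-F245I (2.55 ± 0.39; adjusted p = 1.25e-08). At 30 °C, where the values served to choose the gene, it stood at 1802, 1808 and 1728 CPM in npl3-F162Y, at 2102, 2072 and 2054 CPM in npl3-P196D-A197D and at 1174, 1195 and 1315 CPM in npl3-F245I, against 64.1, 95.4 and 81.2 CPM in NPL3. An antisense RNA gene, YNCM0001W, spans the whole of PHO84 on the other strand (chromosome XIII, 23564 to 26578) and has no row in the table. The counting took strand into account, as far as the table shows: of 8 features that lie wholly inside a feature on the opposite strand, 7 had counts, the highest 97636 over all libraries, which counting without strand would have left ambiguous. The upstream frame YML122C, on the strand of PHO84, stayed at 0.662 to 2.90 CPM in all 24 libraries.

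PHO89 encodes the sodium-coupled high-affinity carrier, which works best at alkaline pH (YBR296C, chromosome II, 796798 to 798522, minus strand, 1 exon). At 37 °C it was read at 54.7, 53.2 and 55.2 CPM in npl3-F162Y, at 28.8, 24.4 and 23.9 CPM in npl3-P196D-A197D and at 21.0, 22.5 and 20.2 CPM in npl3-F245I, against 9.71, 11.9 and 11.4 CPM in NPL3. No mutant library overlapped the NPL3 libraries, and the spacing of the mutants differed from that of PHO84, since npl3-P196D-A197D lay nearer to npl3-F245I than to npl3-F162Y. It rose 4.92-fold in npl3-F162Y (log2 2.30 ± 0.09; adjusted p = 3.97e-18), 2.32-fold in npl3-P196D-A197D (1.21 ± 0.12; adjusted p = 3.79e-12) and 1.93-fold in npl3-F245I (0.95 ± 0.10; adjusted p = 1.76e-10). At 30 °C it was read at 182, 178 and 169.6 CPM in npl3-F162Y, at 85.7, 89.3 and 90.0 CPM in npl3-P196D-A197D and at 52.2, 52.3 and 57.6 CPM in npl3-F245I, against 9.43, 9.39 and 9.47 CPM in NPL3.

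SPL2 encodes the small protein that lowers low-affinity uptake (YHR136C, chromosome VIII, 374654 to 375100, minus strand, 1 exon). Its 37 °C levels were 34.3, 31.2 and 35.5 CPM in npl3-F162Y, then 31.7, 27.2 and 32.6 CPM in npl3-P196D-A197D and also 10.8, 9.84 and 13.6 CPM in npl3-F245I, against 1.97, 1.87 and 1.97 CPM in NPL3. The first 2 mutants overlapped each other, npl3-F245I lay below both, and NPL3 lay below all mutants. The rises were 17.4-fold (log2 4.12 ± 0.06; adjusted p = 1.04e-18), 15.6-fold (3.97 ± 0.08; adjusted p = 4.33e-18) and 5.80-fold (2.54 ± 0.14; adjusted p = 8.86e-14) in npl3-F162Y, npl3-P196D-A197D and npl3-F245I. Ranked by fold change among the 6518 genes at 37 °C, SPL2 was at places 1, 1 and 5 (npl3-F162Y, npl3-P196D-A197D, npl3-F245I), and PHO84 was at places 2, 2 and 4. At 30 °C SPL2 averaged 50.9 ± 0.909 CPM (npl3-F162Y), 50.9 ± 2.94 CPM (npl3-P196D-A197D) and 25.2 ± 1.40 CPM (npl3-F245I), against 2.49 ± 0.104 CPM in NPL3 (SD, n = 3 each).

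GIT1 encodes the permease through which cells take up glycerophosphoinositol as a source of phosphate and inositol (YCR098C, chromosome III, 297049 to 298605, minus strand, 1 exon). At 37 °C it was read at 100.5, 97.3 and 101 CPM in npl3-F162Y, at 86.9, 83.6 and 83.8 CPM in npl3-P196D-A197D and at 48.3, 46.4 and 48.0 CPM in npl3-F245I, against 37.0, 39.8 and 40.0 CPM in NPL3. The 4 strains did not overlap. GIT1 rose 2.55-fold in npl3-F162Y (log2 1.35 ± 0.04; adjusted p = 7.68e-18), 2.17-fold in npl3-P196D-A197D (1.12 ± 0.04; adjusted p = 6.23e-16) and 1.22-fold in npl3-F245I (0.29 ± 0.04; adjusted p = 6.44e-06). Its levels at 30 °C averaged 98.2 ± 3.86 CPM (npl3-F162Y), 89.7 ± 4.61 CPM (npl3-P196D-A197D) and 48.9 ± 0.535 CPM (npl3-F245I), against 26.4 ± 0.152 CPM in NPL3.

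**Figure D1:**
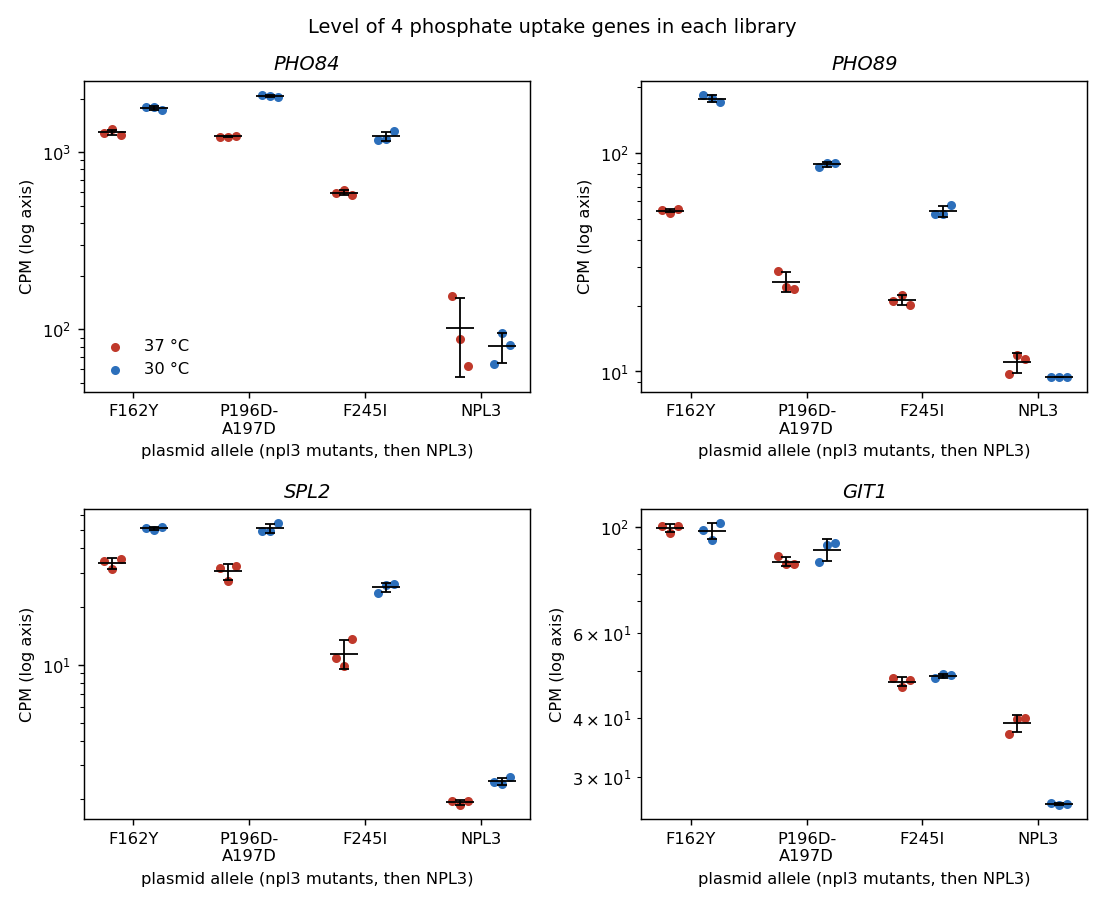
Level of PHO84, PHO89, SPL2 and GIT1 in CPM (log axis) in each library at 37 °C (red) and 30 °C (blue), for the 3 npl3 mutants and NPL3. Points are libraries, and black bars give the mean and SD of 3 libraries. In PHO84 and SPL2 the NPL3 libraries lie far below those of the mutants. In PHO89 they also lie below, with a smaller gap to each mutant at 37 °C than at 30 °C. In GIT1 the gap to npl3-F245I at 37 °C is small.

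Counted over the 8 genes at 37 °C, 7 passed the test in npl3-F162Y (6 higher, 1 lower), 6 in npl3-P196D-A197D (5 higher, 1 lower) and 5 in npl3-F245I (5 higher, 0 lower). Over all genes tested, 58.8%, 43.7% and 50.6% were called in these 3 comparisons in either direction, and 28.0%, 21.3% and 24.0% were called higher. With 8 genes these counts rest on a small base, and the sizes of the changes carry the description. The median log2 fold change of the 8 genes was 0.79, 0.69 and 0.22, and that of all genes was -0.01, -0.02 and -0.02. At 30 °C, 6, 6 and 5 of the genes lay above NPL3 with no overlap between libraries and 2, 2 and 1 lay below. Among all genes 75.4%, 64.2% and 68.0% had no overlap in either direction, and nothing is read from these 30 °C counts, since the set was chosen on them.

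**Figure D2:**
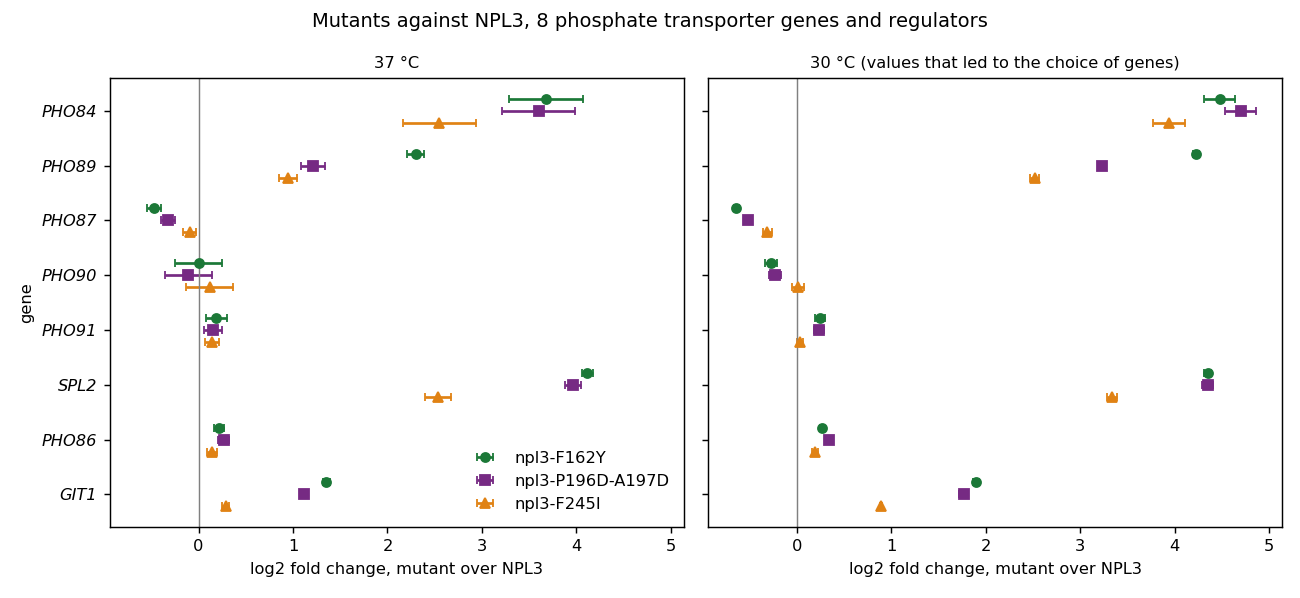
Log2 fold change of the 8 genes in each mutant over NPL3 at 37 °C (left) and at 30 °C (right). Points are fitted fold changes and bars 1 standard error from 3 against 3 libraries. PHO84 and SPL2 have the largest changes in all 3 mutants at 37 °C, 2.54 or more, and npl3-F245I (triangles) lies nearest to 0 for PHO84, PHO89, SPL2 and GIT1.

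The low-affinity carriers changed little or fell. PHO87 encodes a plasma membrane carrier with an SPX domain, which also senses phosphate (YCR037C, chromosome III, 194414 to 197185, minus strand). The 37 °C libraries read 94.2, 98.5 and 97.7 CPM in npl3-F162Y, at 109, 107 and 105 CPM in npl3-P196D-A197D and at 123, 129 and 125 CPM in npl3-F245I, against 146, 133 and 123 CPM in NPL3. The first 2 mutants lay below all NPL3 libraries, and npl3-F245I overlapped them. PHO87 fell 1.38-fold in npl3-F162Y (log2 -0.47 ± 0.07; adjusted p = 1.16e-08) and 1.25-fold in npl3-P196D-A197D (-0.32 ± 0.07; adjusted p = 6.88e-06). Its difference of -0.10 ± 0.07 in npl3-F245I did not pass (adjusted p = 0.0947), but passed without NPL3 replicate 3 (-0.13; adjusted p = 0.0149). At 30 °C it averaged 107 ± 1.74 CPM (npl3-F162Y), 116 ± 2.58 CPM (npl3-P196D-A197D) and 134 ± 6.51 CPM (npl3-F245I), against 166 ± 3.88 CPM in NPL3.

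PHO90, the paralog of PHO87 (YJL198W, chromosome X, 60844 to 63489, plus strand), passed in none of the mutants at 37 °C. It was read at 92.4, 98.1 and 88.9 CPM in npl3-F162Y, at 89.0, 90.0 and 79.9 CPM in npl3-P196D-A197D and at 99.9, 103 and 100.2 CPM in npl3-F245I, against 117, 96.8 and 65.6 CPM in NPL3. The NPL3 libraries spanned the range of all mutants, and the standard error of each log2 fold change was 0.25. Without NPL3 replicate 3, its lowest library, PHO90 was lower in npl3-F162Y (log2 -0.19; adjusted p = 0.0163) and in npl3-P196D-A197D (-0.30; adjusted p = 0.000779), and without NPL3 replicate 1 it was higher in npl3-F245I (0.31; adjusted p = 0.0117). Levels at 30 °C were 96.5 ± 2.26 CPM (npl3-F162Y), 99.5 ± 3.17 CPM (npl3-P196D-A197D) and 118 ± 5.07 CPM (npl3-F245I), against 117 ± 7.87 CPM in NPL3.

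PHO91, whose product sits in the vacuolar membrane (YNR013C, chromosome XIV, 649028 to 651712, minus strand), was the least variable of the 8 genes, with group means that spanned 1.23-fold. Levels at 37 °C were 195, 213 and 172 CPM in npl3-F162Y, at 174, 203 and 189.9 CPM in npl3-P196D-A197D and at 185, 192 and 185 CPM in npl3-F245I, against 172, 182 and 155 CPM in NPL3. It rose 1.14-fold in npl3-F162Y (log2 0.19 ± 0.11; adjusted p = 0.0205), although libraries overlapped, and this call was lost in a fit of these 2 groups alone (adjusted p = 0.0980), without NPL3 replicate 3 (0.108) and without npl3-F162Y replicate 1 (0.0530) or 2 (0.166). The changes of 0.16 ± 0.09 in npl3-P196D-A197D and 0.14 ± 0.07 in npl3-F245I did not pass (adjusted p = 0.0663 and 0.0821). Without NPL3 replicate 2 both passed (adjusted p = 0.0269 and 0.0307), as did npl3-P196D-A197D without its replicate 1 (0.0231). npl3-F245I also passed without replicate 2 of every strain at 37 °C, the 4 libraries whose sample numbers run in another series (0.0383). PHO91 averaged 187 ± 11.3 CPM (npl3-F162Y), 185 ± 10.6 CPM (npl3-P196D-A197D) and 161 ± 2.68 CPM (npl3-F245I) at 30 °C, against 157 ± 4.58 CPM in NPL3. There the first 2 mutants lay above NPL3 without overlap, and npl3-F245I overlapped it.

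PHO86, which acts in the endoplasmic reticulum on the way of Pho84 to the cell surface (YJL117W, chromosome X, 192531 to 193466, plus strand), rose by small steps. At 37 °C it was read at 172, 169 and 166 CPM in npl3-F162Y, at 177, 168 and 179 CPM in npl3-P196D-A197D and at 159, 163 and 157 CPM in npl3-F245I, against 154, 136 and 146 CPM in NPL3. No mutant library overlapped NPL3. The rises were 1.16-fold (adjusted p = 9.74e-05), 1.20-fold (adjusted p = 1.76e-05) and 1.10-fold (adjusted p = 0.00774). That of npl3-F245I was lost in a fit of its 2 groups alone (adjusted p = 0.0817), without NPL3 replicate 2 (0.0675) and without the same 4 libraries (0.145). PHO86 averaged 205 ± 1.67 CPM (npl3-F162Y), 216 ± 8.23 CPM (npl3-P196D-A197D) and 195 ± 7.47 CPM (npl3-F245I) at 30 °C, against 170 ± 3.18 CPM in NPL3.

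**Figure D3:**
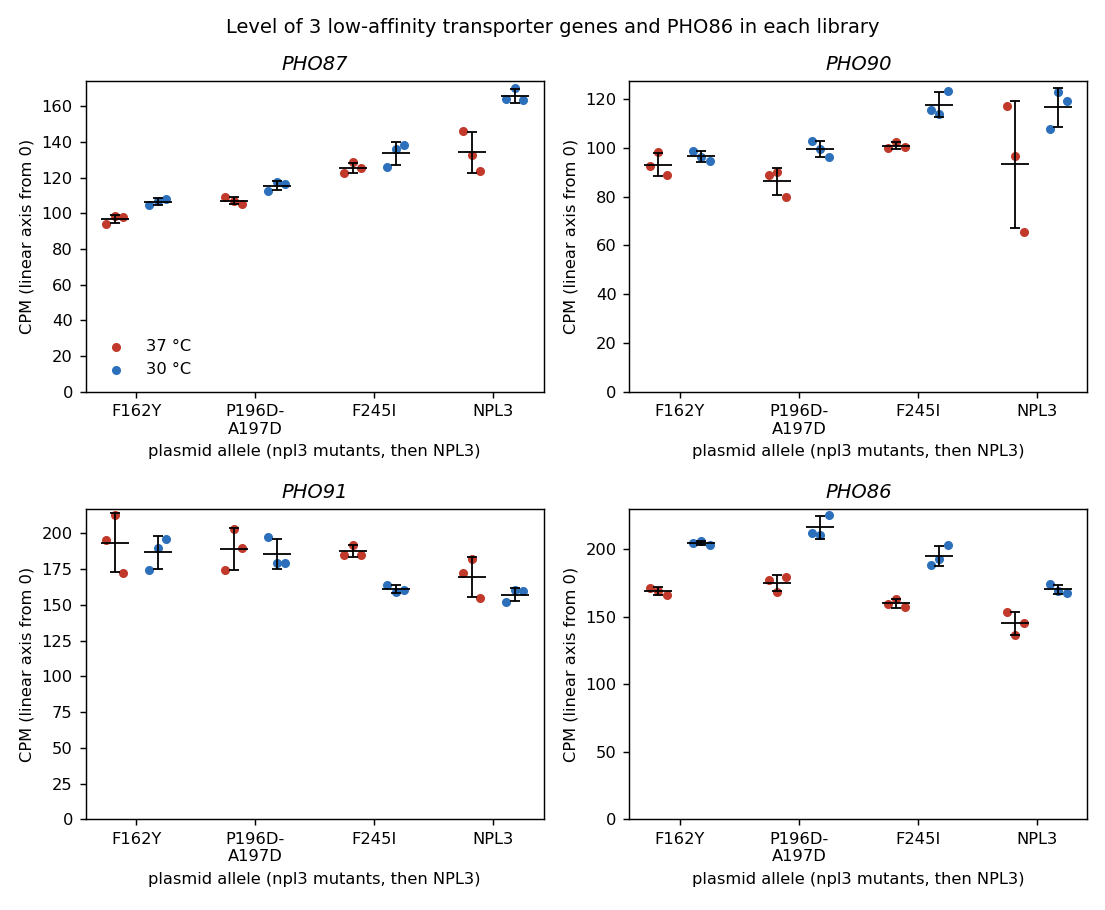
Level of PHO87, PHO90, PHO91 and PHO86 in CPM (linear axis from 0) in each library at 37 °C (red) and 30 °C (blue). Points are libraries, and black bars give the mean and SD of 3 libraries. The mean of PHO87 is highest in NPL3 at each temperature, and the 37 °C libraries of NPL3 spread the most in PHO90, between 65.6 and 117 CPM.

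Per kilobase of coding length, the transcripts of the 5 carriers can be set side by side. At 37 °C their sum was 908 ± 36.8 CPM per kb in npl3-F162Y, 853 ± 4.84 in npl3-P196D-A197D and 501 ± 13.3 in npl3-F245I, against 211 ± 43.1 in NPL3 (SD, n = 3). PHO84 and PHO89 together made up 84.3 ± 0.423%, 83.4 ± 0.669% and 69.4 ± 0.366% of that sum in the mutants, against 29.5 ± 6.34% in NPL3. The sum of the 3 low-affinity genes was 142 ± 9.57, 142 ± 5.77 and 153 ± 3.07 CPM per kb in the mutants, against 147 ± 17.8 in NPL3, and all groups overlapped NPL3. At 30 °C the high-affinity share was 88.5%, 89.2% and 82.6% in the mutants, against 23.8% in NPL3. Within the high-affinity pair, PHO84 stood above PHO89 per kilobase by 23.3 ± 1.34 times in npl3-F162Y, 47.1 ± 4.94 times in npl3-P196D-A197D and 27.3 ± 0.636 times in npl3-F245I, against 9.38 ± 5.47 times in NPL3, all at 37 °C. At 30 °C these ratios were 9.86 ± 0.172, 23.0 ± 0.872 and 22.2 ± 0.208 in the same order, against 8.32 ± 1.65 in NPL3. In the low-affinity group, PHO87 supplied 24.6%, 27.3% and 29.5% of the summed level in the mutants at 37 °C, against 33.1% in NPL3.

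**Figure D4:**
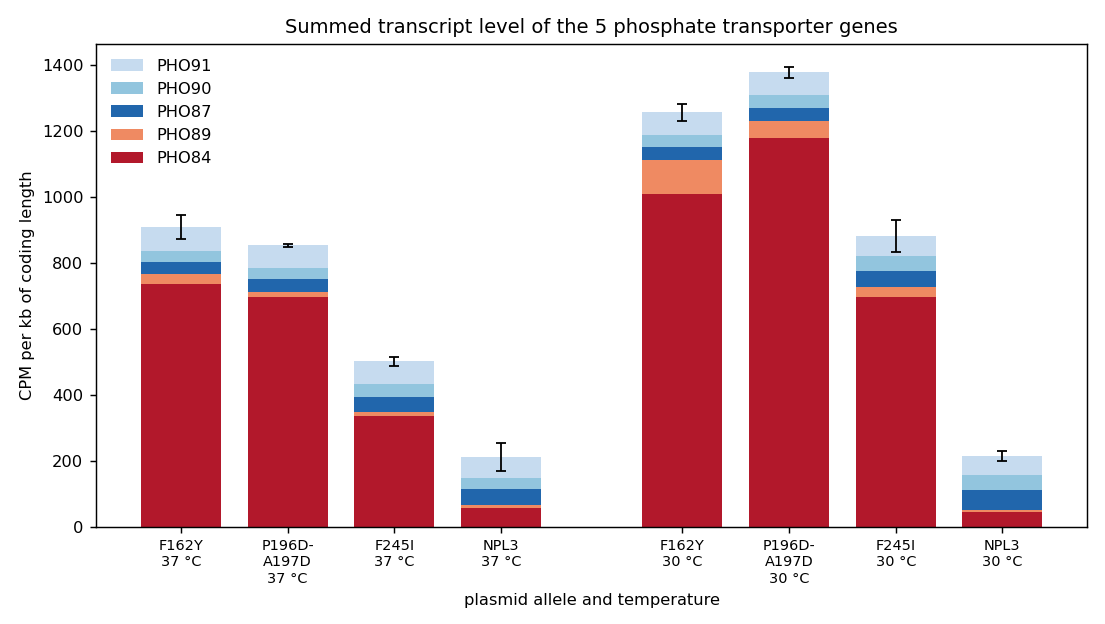
Summed level of the 5 carrier genes in CPM per kb of coding length, mean of 3 libraries in each group, with bars for the SD of the sum. High-affinity genes are in red tones and low-affinity genes in blue tones. The blue part is of similar height in all groups, 142 to 153 CPM per kb at 37 °C, and the red part carries the difference between strains.

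In the mutants, high-affinity transcripts were lower at 37 °C than at 30 °C. The baseline of these comparisons is the 30 °C mutant libraries on which the genes were chosen, a choice that favours falls in the mutants, so the p-values of these falls and of the differences in response are not independent of it. PHO89 fell 3.25-fold in npl3-F162Y (log2 -1.70 ± 0.03; adjusted p = 2.64e-17), 3.46-fold in npl3-P196D-A197D (-1.79 ± 0.09; adjusted p = 5.88e-17) and 2.54-fold in npl3-F245I (-1.34 ± 0.06; adjusted p = 7.27e-15). In NPL3 it moved the other way, 1.17-fold higher at 37 °C (0.23 ± 0.09; adjusted p = 0.0186), a call that was lost without the 4 libraries of another sample number series (adjusted p = 0.106), in a fit of the 2 groups alone (0.0835) and without NPL3 replicate 2 (0.113) or 3 (0.0635) at 37 °C. The difference between responses, mutant minus NPL3, was -1.93 ± 0.09 (adjusted p = 2.22e-12), -2.02 ± 0.12 (adjusted p = 1.03e-12) and -1.57 ± 0.11 (adjusted p = 1.02e-10) in npl3-F162Y, npl3-P196D-A197D and npl3-F245I.

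PHO84 fell 1.69-fold in npl3-P196D-A197D (log2 -0.76 ± 0.01; adjusted p = 0.00265) and 2.07-fold in npl3-F245I (-1.05 ± 0.06; adjusted p = 0.000121). In npl3-F162Y the fall was 1.37-fold (-0.46 ± 0.04) with an adjusted p of 0.0499, and it was lost with the replicate block (adjusted p = 0.0601) and without the filter on low counts (adjusted p = 0.0575) and without the 4 libraries of another sample number series (0.101). Leaving out any 1 of its 6 libraries also ended this call (adjusted p = 0.0767 to 0.117). In NPL3 the value was 0.34 ± 0.42 (adjusted p = 0.159), and without NPL3 replicate 1 at 37 °C, the highest library, it was -0.09, against 0.60 without replicate 3 (adjusted p = 0.00270). The shared estimate of spread includes the NPL3 libraries, whose PHO84 counts vary more than those of the mutants, with a coefficient of variation of 47.3% at 37 °C in NPL3 against at most 3.79% in the mutants. The response differed from that of NPL3 by -1.10 ± 0.42 in npl3-P196D-A197D (adjusted p = 0.0191) and -1.39 ± 0.42 in npl3-F245I (adjusted p = 0.00134). In npl3-F162Y the difference of -0.80 ± 0.42 did not pass (adjusted p = 0.0566), but passed without NPL3 replicate 2 at 30 °C (0.0378) or replicate 3 at 37 °C (0.000894), with RLE size factors (0.0475) and with DESeq2 (0.0344). That of npl3-P196D-A197D was lost without NPL3 replicate 1 at 30 °C (0.0564), without the 4 libraries of another sample number series (0.0523) and in a fit of its groups alone (0.141).

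SPL2 fell 1.51-fold, 1.68-fold and 2.24-fold in npl3-F162Y, npl3-P196D-A197D and npl3-F245I (adjusted p = 4.02e-07, 1.82e-08 and 4.08e-11). In NPL3 the change of -0.36 ± 0.04 did not pass (adjusted p = 0.0617), although the 37 °C libraries lay below the 30 °C libraries, and passed with the replicate block (0.0277) and with DESeq2 (0.0489). The response of npl3-F245I exceeded that of NPL3 by -0.80 ± 0.15 (adjusted p = 0.00291), while those of npl3-F162Y (-0.23 ± 0.07) and npl3-P196D-A197D (-0.38 ± 0.10) did not differ past the threshold (adjusted p = 0.415 and 0.210).

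GIT1 behaved differently, since NPL3 was the strain that responded. It rose 1.48-fold in NPL3 (log2 0.56 ± 0.04; adjusted p = 1.63e-10), with 37.0, 39.8 and 40.0 CPM at 37 °C against 26.5, 26.2 and 26.4 CPM at 30 °C. In the mutants the changes were 0.02 ± 0.04, -0.08 ± 0.05 and -0.04 ± 0.02, and none passed, although npl3-P196D-A197D did without its replicate 1 at 30 °C (-0.12; adjusted p = 0.0164), with RLE size factors (0.0352) and with DESeq2 (0.0391). The responses differed by -0.54 ± 0.05, -0.65 ± 0.06 and -0.60 ± 0.04 in npl3-F162Y, npl3-P196D-A197D and npl3-F245I (adjusted p = 9.32e-07, 7.66e-08 and 1.80e-07).

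Of the other genes, PHO86 fell in all 4 strains, by 1.21-fold, 1.24-fold and 1.22-fold in the mutants and 1.17-fold in NPL3 (highest adjusted p = 4.00e-05, in NPL3). PHO87 fell 1.24-fold in NPL3 (adjusted p = 3.85e-06) and 1.10-fold in npl3-F162Y (adjusted p = 0.0158), the second of which was lost without replicate 3 at 30 °C (0.0525) or replicate 1 at 37 °C (0.0660). PHO90 fell 1.25-fold in NPL3 (adjusted p = 0.0241) with overlapping libraries, and without NPL3 replicate 3 at 37 °C the change was -0.12 on the log2 scale (adjusted p = 0.111). The call also ended without NPL3 replicate 2 or 3 at 30 °C (adjusted p = 0.0757 and 0.0604), without the 4 libraries of another sample number series (0.0591) and in a fit of the 2 groups alone (0.213). PHO90 lay lower at 37 °C without overlap in npl3-P196D-A197D and npl3-F245I (log2 -0.20 and -0.22), but neither fall passed. In fits of the 2 groups alone both passed (adjusted p = 0.00333 and 3.96e-05), and npl3-F245I also with DESeq2 (0.0407). The fall of PHO87 in npl3-P196D-A197D (-0.11) did not pass. It did with RLE size factors (adjusted p = 0.0196), DESeq2 (0.0184), the 2 groups alone (0.0314) and without replicate 1 at 30 °C (0.0487). PHO91 rose 1.16-fold in npl3-F245I (adjusted p = 0.00679). In all, 5, 4 and 5 of the 8 genes were called in npl3-F162Y, npl3-P196D-A197D and npl3-F245I and 5 in NPL3, where 61.3%, 61.9%, 68.6% and 67.0% of all genes were called. For the difference in response from NPL3, 2, 3 and 5 of the 8 were called, against 20.5%, 10.6% and 28.9% of all genes.

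**Figure D5:**
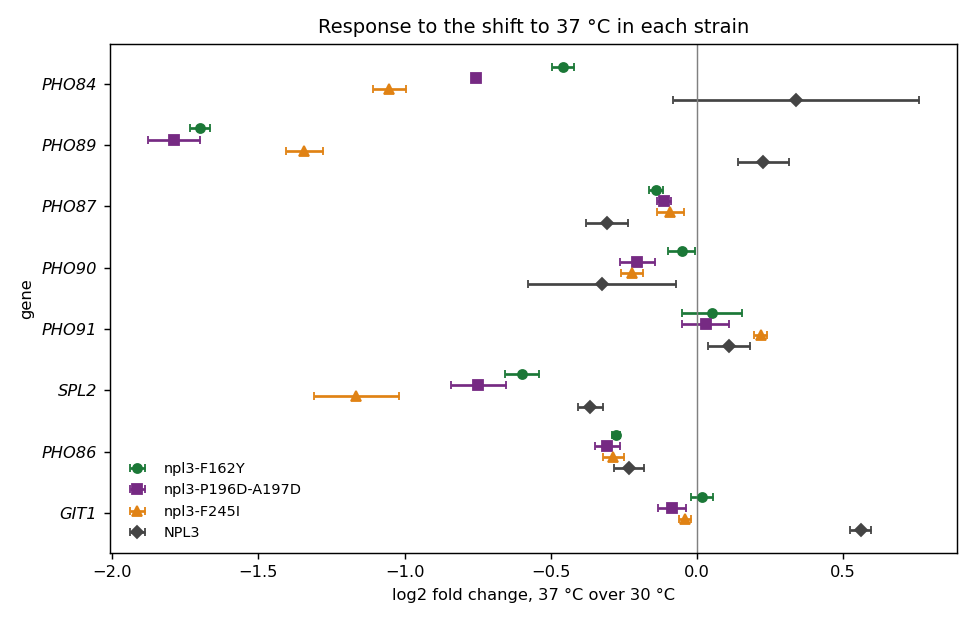
Log2 fold change at 37 °C over 30 °C of the 8 genes in each strain. Points are fitted fold changes and bars 1 standard error from 3 against 3 libraries. PHO89 lies between -1.79 and -1.34 in the mutants and at 0.23 in NPL3, and GIT1 lies near 0 in the mutants and at 0.56 in NPL3.

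The mutants also differed from each other, in comparisons that hold no NPL3 library. Those at 30 °C use the values that chose the genes and are given without p-values. PHO89 was 2.00-fold lower in npl3-P196D-A197D than in npl3-F162Y at 30 °C and 2.12-fold lower at 37 °C (adjusted p = 2.84e-11). SPL2 differed between these mutants by 0.00 ± 0.05 on the log2 scale at 30 °C and by -0.15 ± 0.10 at 37 °C (adjusted p = 0.204 at 37 °C). PHO84 was 1.17-fold higher in npl3-P196D-A197D at 30 °C with no overlap between libraries. GIT1 was lower in npl3-P196D-A197D than in npl3-F162Y by 1.09-fold at 30 °C and by 1.17-fold at 37 °C (adjusted p = 0.000258). Of the 8 genes 3 were called at 37 °C, where 19.3% of all genes were called.

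npl3-F245I had the smallest rises of the 3 mutants. Against npl3-F162Y at 37 °C, PHO84 was 2.19-fold lower (adjusted p = 0.000176), PHO89 2.55-fold lower (adjusted p = 2.00e-13), SPL2 2.99-fold lower (adjusted p = 1.38e-12) and GIT1 2.09-fold lower (adjusted p = 5.71e-15), while PHO87 was 1.30-fold higher (adjusted p = 1.03e-06). At 30 °C these 5 genes lay in the same directions, with PHO84 1.45-fold lower. npl3-P196D-A197D stood above npl3-F245I at 37 °C by 2.07-fold in PHO84 (adjusted p = 0.000342), 1.43 on the log2 scale in SPL2 (adjusted p = 6.38e-12), 1.78-fold in GIT1 (adjusted p = 2.07e-13) and 1.20-fold in PHO89 (adjusted p = 0.00341). Of the 8 genes 5 were called for npl3-F245I against npl3-F162Y at 37 °C, where 38.2% of all genes were called. At 30 °C, 2 of the 8 lay above npl3-F162Y and 5 below with no overlap between libraries. Of all genes 33.7% were called in that comparison. Calls among the 8 are not counted at 30 °C, since the values chose them. Between npl3-P196D-A197D and npl3-F245I, 6 of the 8 were called at 37 °C, where 37.7% of all genes were. At 30 °C, 6 of the 8 lay higher in npl3-P196D-A197D and 2 lower with no overlap between libraries. Of all genes 28.2% were called there, and nothing is read from either 30 °C comparison of counts.

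Ordered by mean level over the 8 groups, PHO84 was highest in npl3-P196D-A197D at 30 °C, followed by npl3-F162Y at 30 °C and npl3-F162Y at 37 °C. Then came npl3-P196D-A197D at 37 °C and npl3-F245I at 30 °C, which overlapped, npl3-F245I at 37 °C, and the 2 NPL3 groups, which overlapped. Genes whose group means most resembled those of PHO84, SPL2, PHO89, PHO87 and PHO90 were sought among 4990 named genes with a mean of at least 10 CPM, by Pearson r of mean log2 CPM over the 8 groups. The points are the 8 group means, all scaled together, and the NPL3 groups stand apart from the mutants, so r is a description. Nearest to PHO84 were PCL5 (r = 0.978), ZRT1 (0.975), SNO1 (0.974), AQY2 (0.964) and NCW2 (0.962). SPL2 had NCW2 (0.968), YPS3 (0.965), SNO1 (0.963), PCL5 (0.961) and ZRT1 (0.958). PHO89 had CTF19 (0.981), GCV1 (0.980), EAF7 (0.979), PHO12 (0.976) and PHO11 (0.973). PHO11 and PHO12 are 99.7% identical over 1404 bases, so the counting could have split their reads. PHO87 had MOT2 (0.986), GEP5 (0.984), BTS1 (0.981), OST6 (0.979) and OSH3 (0.975), and PHO90 had ALG3 (0.980), NSG2 (0.974), MAP1 (0.970), DBP2 (0.963) and RRP7 (0.962).

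Of 26 further genes of phosphate signalling, phosphatases and polyphosphate metabolism, 18 were higher and 7 lower at 37 °C in npl3-F162Y. In npl3-P196D-A197D 17 were higher and 3 lower, while npl3-F245I had 15 higher and 2 lower. Over all genes 28.0%, 21.3% and 24.0% were called higher and 58.8%, 43.7% and 50.6% in either direction. The median log2 fold changes of the 26 were 0.38, 0.33 and 0.31. PHO5, the main secreted acid phosphatase, averaged 724 ± 41.0, 663 ± 8.80 and 530 ± 17.4 CPM in the mutants, against 131 ± 4.51 CPM in NPL3, rises of 5.54-fold, 5.07-fold and 4.06-fold (highest adjusted p = 5.02e-17). PHM6, a gene of unknown role that is induced by low phosphate, rose by 2.35 on the log2 scale in npl3-F162Y and by 2.32 in npl3-P196D-A197D (adjusted p = 6.57e-11 and 2.17e-10). PHO11, another acid phosphatase, rose 2.41-fold in npl3-F245I (adjusted p = 3.04e-11). PHO85, the kinase gene, fell 1.28-fold, 1.13-fold and 1.21-fold (highest adjusted p = 0.00301). Smaller falls were those of SYG1, a gene for an SPX-domain protein, by 1.18-fold in npl3-F162Y, of the polyphosphatase gene PPN1 by 1.08-fold in npl3-P196D-A197D and of VTC5, for a subunit of the polyphosphate polymerase complex, by 1.14-fold in npl3-F245I (adjusted p = 0.00845, 0.0423 and 0.0155).

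Transporters of other ions were called in both directions. Of 15 such genes 6 were higher and 3 lower at 37 °C in npl3-F162Y, 7 higher and 1 lower in npl3-P196D-A197D, while npl3-F245I had 5 higher and 5 lower, with median log2 fold changes of 0.05, 0.10 and -0.03. Called in either direction were 9, 8 and 10 of the 15, beside 58.8%, 43.7% and 50.6% of all genes, and nothing is read from these counts. ZRT1, the high-affinity zinc transporter, rose the most, 3.97-fold, 3.38-fold and 2.78-fold (highest adjusted p = 1.00e-14). PMA1, the plasma membrane proton pump, fell 1.70-fold, 1.33-fold and 1.59-fold (highest adjusted p = 1.84e-07). Of the 2 mitochondrial phosphate carriers, MIR1 fell 1.18-fold in npl3-F162Y and 1.09-fold in npl3-F245I (adjusted p = 5.81e-05 and 0.0191), and PIC2 rose 1.17-fold in npl3-F162Y and fell 1.33-fold in npl3-F245I (adjusted p = 0.0248 and 0.000422).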

How the data were processed

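The deposited table holds counts per feature for 24 libraries. Per the submitters' processing notes, the authors used FastQC, the aligner STAR 2.7.2a with build R64, and HTSeq for the counts, and per the labels the kit was stranded. The counting settings are not given in the sources used here. The 5 summary rows were removed, which held 4.39 to 6.51% of reads in no feature and 0.787 to 1.01% ambiguous. In R 4.3.3, edgeR 4.0.16 filtered genes with filterByExpr, scaled libraries by TMM and fitted 1 mean per group over all 24 libraries (quasi-likelihood F-test, robust, 16 residual degrees of freedom, Benjamini-Hochberg over 6518 genes, threshold 0.05). Standard errors come from replicate log2 CPM with a prior count of 2. The fit was tested on simulated data. The members and lists were chosen with earlier results of these data known, and genes outside them were named by a fixed rule. None of the 8 genes had a near-identical copy (95% identity over 100 bases, BLAST). Alternatives were RLE factors, no filter, DESeq2 1.42.0, replicate number as a block, only the groups compared, no libraries of another sample number series (replicate 2 at 37 °C), and each library left out. Replicate numbers were checked for pairing by correlating residuals across genes. Of 16 comparisons, every pair was above 0.1 in that of npl3-F162Y with NPL3 at 37 °C (r = 0.21, 0.55 and 0.28). Between strains at 37 °C, replicate 2, the other sample number series, gave r from 0.34 to 0.55. Replicates 1 and 3 gave 0.01 to 0.37 there. At 30 °C replicate 2 gave -0.07 to -0.01 between strains. These correlations come from the data, and the labels give no pairing and do not say what the number series stands for.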

Additional observations from a re-analysis of the deposited data

Results flagged for a closer look

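Responses to the shift to 37 °C that differed from that of NPL3 are listed with the difference in log2 fold change, mutant minus NPL3, each past the threshold in the interaction contrast. PHO89 differed by -1.93 in npl3-F162Y, -2.02 in npl3-P196D-A197D and -1.57 in npl3-F245I, having fallen in the mutants and risen in NPL3. GIT1 differed by -0.54, -0.65 and -0.60 in npl3-F162Y, npl3-P196D-A197D and npl3-F245I, having passed the test for a rise in NPL3 and in none of the mutants. PHO84 differed by -1.10 in npl3-P196D-A197D and -1.39 in npl3-F245I, and SPL2 by -0.80 in npl3-F245I. PHO87 differed by 0.22 in npl3-F245I, where its fall did not pass (it did with RLE size factors, DESeq2 and only the groups compared, adjusted p = 0.0271, 0.0252 and 0.0181), while it fell in NPL3, and this difference was lost without the 4 libraries of another sample number series (adjusted p = 0.0714), with only the groups compared (0.0685), without NPL3 replicate 3 at 37 °C (0.0626) or npl3-F245I replicate 1 at 30 °C (0.0567). All these contrasts include the 30 °C libraries on which the genes were chosen.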

How the results depend on the processing

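Of the recomputed counts of called members, 201 stayed within 1.5 times and 9 did not. For the shift in NPL3 the count was 5, and 3 without the 4 libraries of another sample number series and in a fit of only the groups compared. Others of the 9 were for npl3-P196D-A197D against npl3-F162Y at 30 °C. Those counts are not given, since the values chose the genes. With a library left out, the shift in npl3-F162Y gave 3 to 4 instead of 5, and its difference from NPL3 gave 2 to 4 instead of 2, the 4 without NPL3 replicate 1 at 37 °C. The value that reversed was PHO90 in npl3-F162Y at 37 °C (0.00), which ranged from -0.19 without NPL3 replicate 3 to 0.20 without NPL3 replicate 1; the cause was not tested. Among values of single genes, 65 lost the threshold and 40 gained it. Over all genes, a fit of only the groups compared called 1425 instead of 2850 genes for npl3-P196D-A197D at 37 °C, 309 instead of 694 for its difference in response (1275 without NPL3 replicate 1 at 37 °C), and at 30 °C 2571 instead of 1642 between npl3-P196D-A197D and npl3-F162Y, 3339 instead of 2199 between npl3-F245I and npl3-F162Y, and 2792 instead of 1839 between npl3-P196D-A197D and npl3-F245I. With the replicate block the members' counts at 37 °C were 7, 6 and 5, as without it, and 8 of 24 libraries correlated best with one of their own number. In NPL3 SPL2 had about 2 CPM, so its fold changes rest on the fewest counts among these genes.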
